A study of Mus musculus with 6 samples.

Results

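The genes described here are 9 UDP-glucuronosyltransferases of mouse liver (Ugt1a1, Ugt1a6a, Ugt1a6b, Ugt2a3, Ugt2b1, Ugt2b5, Ugt2b34, Ugt2b35 and Ugt2b36) and Ugdh, the enzyme that makes their sugar donor. They were taken by symbol, and the 10 rows are among 30889 genes of the deposited table. Liver messenger RNA was sequenced from mice treated orally for 14 days. The 3 control libraries came from mice that received phosphate buffer saline, and the 3 extract libraries from mice that received a water extract of Emilia sonchifolia, a plant of the daisy family. Strain, genotype, sex, age and dose are not given in the sources used here. Nothing in the labels says whether each library came from its own animal, so p-values measure the spread between libraries, which may be technical.

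UDP-glucuronosyltransferases sit in the membrane of the endoplasmic reticulum with their active site facing its lumen. They join glucuronic acid from UDP-glucuronic acid to bilirubin, steroids, bile acids, thyroid hormones, drugs and plant phenols, which makes these compounds water-soluble and lets them leave in bile or urine. Ugdh makes UDP-glucuronic acid in the cytosol by oxidising UDP-glucose, and carriers move it into the endoplasmic reticulum. The Ugt1a genes form a single locus. Each gene has its own exon encoding the part that binds the substrate. All share the exons that encode the part that binds the sugar donor. The Ugt2 genes described here are separate, complete genes.

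The build of the Ugt1a transcripts bears on every Ugt1a value below, so the sequence across the junction into the shared exons is shown. On GRCm38, the 9 Ugt1a genes annotated by GENCODE share 4 exons on chromosome 1 (88215044 to 88215175, 88215795 to 88215882, 88216138 to 88216357 and 88218127 to 88218997), 1311 bases in all. The own exon of Ugt1a1 (88211959 to 88212871) has 913 bases, and those of Ugt1a6a (88138473 to 88139331) and Ugt1a6b (88106941 to 88107799) have 859 bases each. Below, the last 20 bases of the own exon are in lower case and the first 20 bases of the shared exons in capitals, from GENCODE transcripts on the plus strand. Ugt1a9 and Ugt1a5, which are not among the 10 genes, are shown because their rows take a large part of the counts of the locus.
Ugt1a1: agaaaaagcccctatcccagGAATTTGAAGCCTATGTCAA
Ugt1a6a: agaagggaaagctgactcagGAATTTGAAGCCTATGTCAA
Ugt1a6b: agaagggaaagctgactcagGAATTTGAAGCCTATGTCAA
Ugt1a9: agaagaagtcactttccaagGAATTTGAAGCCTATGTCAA
Ugt1a5: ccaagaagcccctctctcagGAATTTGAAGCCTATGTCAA
The capitals are the same in every line, and the lines of Ugt1a6a and Ugt1a6b are the same throughout. The own exons of Ugt1a6a and Ugt1a6b are 97.0% identical, and their coding sequences are 98.4% identical. Of all stretches of 100 bases in the annotated transcripts, 57.2% of those of Ugt1a1, 95.7% of those of Ugt1a6a and 70.9% of those of Ugt1a6b also occur in another gene. An annotated transcript of Ugt1a7c carries the own exon of Ugt1a6a. The division of counts among the Ugt1a rows is therefore uncertain.

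The Ugt2 members lie together on chromosome 5 between 86889767 and 87337195 and share little sequence at that length. No stretch of 100 bases in Ugt2b1, Ugt2b35 or Ugt2b36 occurs in another gene, and 0.3% of those of Ugt2b34 and 0.6% of those of Ugt2a3 do. Ugt2b5 is the exception, with 24.7% of its stretches shared with Ugt2b37 or Ugt2b38. The closest coding sequences were Ugt2b5 and Ugt2b36 (88.6% identical) and Ugt2b35 and Ugt2b36 (88.3%), and Ugt2b1 and Ugt2b34 were 74.7% identical.

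RefSeq promoter windows (build GRCm38.p6), covering 250 bases before to 50 bases after the start, were matched for 9 of the 10 genes, all but Ugt1a6b, and 32851 such windows were searched on both strands. That of Ugdh is shown because it was the one of the 9 that held the core letters of 2 response elements. The core bound by the aryl hydrocarbon receptor, GCGTG, occurred 3 times before the RefSeq start, and 32.4% of all windows hold it at least once. The antioxidant response core, TGACNNNGC, occurred 2 times there, and 12.4% of all windows hold it. The RefSeq start of Ugdh (65435842) lies 107 bases downstream of the gene start in the deposited table (65435949). One match to each core, overlapping each other on opposite strands, lies inside the gene by the table's start. The other matches to GCGTG, 73 to 69 and 65 to 61 bases before the table's start, lie before both starts and are not shown. The other match to the antioxidant response core also lies before both starts and is shown in capitals.
Ugdh (chr5:65435948-65435992, minus strand, match 132 to 124 bases before the RefSeq start and 25 to 17 before the table's): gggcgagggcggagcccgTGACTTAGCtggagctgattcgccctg
Neither core was in the other 8 windows. The extended single site TCAAGGTCA (0.423% of all windows) was in none of the 9, nor were paired AGGTCA or paired AGTTCA with 4 free bases between (DR4), or AGTTCA and TGAACT in either order with 6 free bases between (ER6), elements of nuclear receptors found in 0.006 to 0.015% of all windows. With exact patterns this rare, a match in 9 windows was unlikely beforehand. Bases farther than 250 before the start were not searched, so nothing is concluded from the absence.

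Of the 10 genes, 7 rose with the extract, 0 fell and 3 did not pass the threshold. Ugdh, Ugt1a1, Ugt2b1, Ugt2b5, Ugt2b34, Ugt2b35 and Ugt2b36 rose between 1.12- and 1.60-fold, and Ugt1a6a, Ugt1a6b and Ugt2a3 did not pass. The test was edgeR's quasi-likelihood test on the deposited counts, two-sided, with Benjamini-Hochberg adjustment over all 18071 genes tested and a threshold of 0.05. It called 26.9% of all genes, 14.2% as higher and 12.8% as lower. All 10 have a mean of at least 5 FPKM, and such genes were called more often. In a separate fit to the 4882 such genes, 2507 were called, 1288 as higher and 1219 as lower. At an unadjusted p under 0.05, 0 of the 10 were lower, and 0 were lower by DESeq2, which called 29.1% of all genes, or by limma on log2(FPKM + 0.5), which called 26.0%. The median log2 fold change of the 10 was 0.40, against −0.02 over all genes tested, and all 10 estimates were above 0. For each of the 7, every extract library lay above every control library in FPKM and in CPM. CPM here are counts scaled by the library total after TMM adjustment. Among all tested genes, 17.7% had every extract library above every control library in FPKM and 22.2% in CPM, and 26.9% and 22.5% had every extract library below. Levels are given as deposited FPKM (fragments scaled by transcript length and by the mapped fragments of the library), as mean ± SD of 3 libraries, and fold changes come from the counts. FPKM is not scaled for the composition of the libraries. Of the genes called by limma on log2(FPKM + 0.5), 1803 were higher and 2891 lower, against 2561 and 2309 by edgeR.

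**Figure D1:**
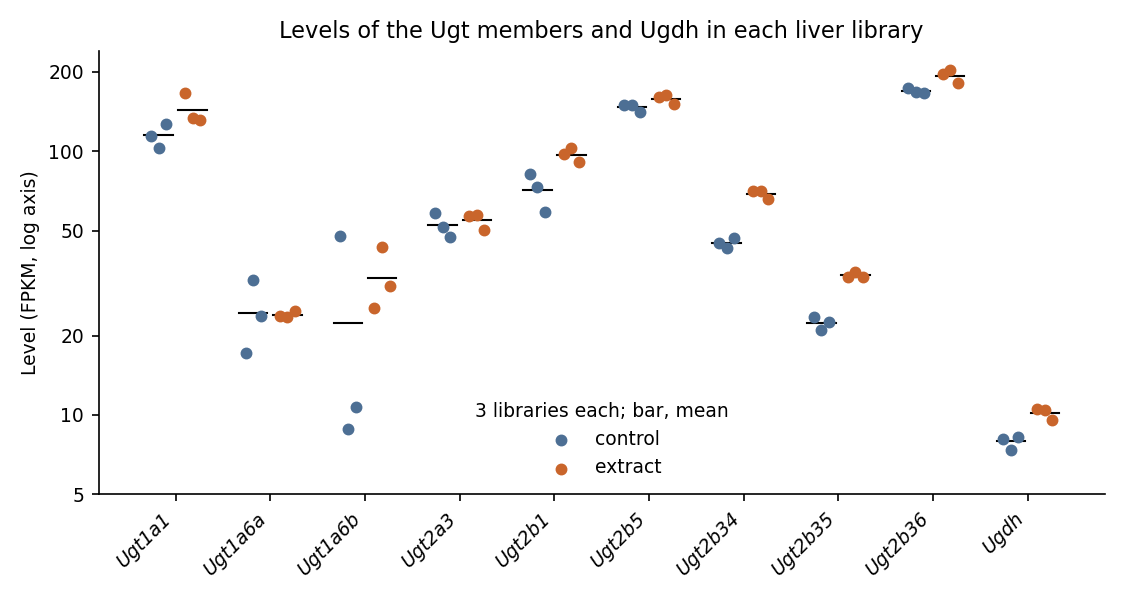
Deposited FPKM on a log axis for the 10 genes (horizontal axis), with 1 point per library for the 3 control and 3 extract libraries and a bar at each group mean. The extract points lie above all control points for Ugdh, Ugt1a1, Ugt2b1, Ugt2b5, Ugt2b34, Ugt2b35 and Ugt2b36, and the groups overlap for Ugt1a6a, Ugt1a6b and Ugt2a3.

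Ugdh, which makes the sugar donor, lay at 8.13, 7.39 and 8.28 FPKM in the control libraries, against 10.6, 10.4 and 9.55 FPKM in the extract libraries. The groups did not overlap, and Ugdh (chromosome 5, 65413221 to 65435949, minus strand) had the lowest level of the 10 genes in both groups. It rose 1.34-fold, with a log2 fold change of 0.42 ± 0.06 (SE, adjusted p = 0.00221 by edgeR), from 7.94 ± 0.475 to 10.2 ± 0.554 FPKM (SD, n = 3).

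Around Ugdh, genes that supply, carry and use UDP-glucuronic acid were followed as a list of 16, of which 7 rose, 1 fell and 8 did not pass. Their median log2 fold change was 0.21, against −0.02 over all genes. For this list and the later ones, the counts of called genes stand beside 26.9% called by edgeR over all genes. In the separate fit to genes with a mean of at least 5 FPKM, 2507 of 4882 were called. Ugp2, which makes the UDP-glucose that Ugdh oxidises, was the one that fell. It lay at 84.8, 82.0 and 76.2 FPKM in the controls, against 67.5, 64.8 and 62.8 FPKM with the extract, so each extract library was below each control. Its log2 fold change was −0.26 ± 0.05 (adjusted p = 0.00618 by edgeR), opposite in sign to that of Ugdh. Slc35d1, a carrier of UDP-glucuronic acid into the endoplasmic reticulum, rose 1.41-fold, from 8.95 ± 0.828 to 12.1 ± 0.190 FPKM (adjusted p = 0.00157 by edgeR). Its relative Slc35d2 rose 1.31-fold. Entpd5, an enzyme of the endoplasmic reticulum lumen that hydrolyses UDP, a product of glucuronidation, rose 1.72-fold, from 20.2 ± 1.41 to 33.2 ± 0.211 FPKM (adjusted p = 6.58e-05 by edgeR). Gulo, the last enzyme of vitamin C synthesis, for which glucuronic acid is the precursor in mice, rose 1.60-fold, from 102 ± 9.62 to 157 ± 4.598 FPKM (adjusted p = 0.000215 by edgeR). Gusb, the lysosomal β-glucuronidase that removes glucuronic acid, had 6.14 FPKM in the controls and 6.88 FPKM with the extract and did not pass (adjusted p = 0.0829 by edgeR). It passed by DESeq2 (adjusted p = 0.0448).

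Ugt1a1, the enzyme that conjugates bilirubin, lay at 114, 103 and 127 FPKM in the control libraries, against 166, 134 and 131 FPKM in the extract libraries. The lowest extract library was just above the highest control library. Ugt1a1 (chromosome 1, 88211959 to 88218997, plus strand) rose 1.303-fold, with a log2 fold change of 0.38 ± 0.11 (SE) and adjusted p = 0.0333 by edgeR. The call was lost without control 1, control 2, extract 1 or extract 2 (adjusted p = 0.0732, 0.121, 0.0822 and 0.0544 by edgeR), without the filter on low counts (0.0561), and by limma on FPKM (0.0624 to 0.133).

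Ugt1a6a and Ugt1a6b, enzymes for small planar phenols, did not pass the threshold. Ugt1a6a (chromosome 1, 88134809 to 88218997, plus strand) lay at 17.1, 32.4 and 23.8 FPKM in the controls, against 23.8, 23.5 and 24.8 FPKM with the extract. Its extract libraries lay close together inside the wider control range (log2 fold change 0.04 ± 0.19, 95% interval −0.39 to 0.47, adjusted p = 0.903 by edgeR). Ugt1a6b (chromosome 1, 88103252 to 88219003, plus strand) lay at 47.5, 8.84 and 10.7 FPKM in the controls, against 25.5, 43.3 and 30.7 FPKM with the extract. Control 1 was the highest of all 6 libraries for Ugt1a6b and the lowest for Ugt1a6a, and control 2 was the lowest for Ugt1a6b and the highest for Ugt1a6a. Its log2 fold change was 0.63 ± 0.58 (95% interval −0.72 to 1.98, adjusted p = 0.472 by edgeR). Without control 1 it was 1.82 ± 0.22 (adjusted p = 0.00157 by edgeR), and that of Ugt1a6a was −0.16 (adjusted p = 0.343). Summed over both genes, the levels were 64.6, 41.3 and 34.5 FPKM in the controls and 49.3, 66.8 and 55.5 FPKM with the extract, and the groups overlapped.

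Because the shared exons make the rows hard to separate, all 9 Ugt1a rows were also summed. The locus had 983, 868 and 830 CPM in the control libraries and 1196, 1193 and 1184 CPM in the extract libraries. The highest control was 1.18 times the lowest, and the highest extract library was 1.0102 times the lowest. The sum rose 1.34-fold (log2 fold change 0.42 ± 0.06, adjusted p = 0.00166 by edgeR), and it stayed past the threshold in each of the 16 other settings tried. The division among rows varied more than the sum. Ugt1a1 took 30.7, 30.8 and 40.7% of the counts of the locus in the controls and 38.05, 30.4 and 30.9% with the extract, so its share overlapped between groups. Ugt1a6b took 13.7, 2.84 and 3.69% in the controls and 6.27, 10.6 and 7.75% with the extract. Ugt1a5 took 14.8, 18.1 and 5.29% in the controls and 4.08, 8.23 and 12.1% with the extract. Ugt1a9 took 29.4, 27.9 and 34.0% in the controls and 40.7, 39.4 and 36.9% with the extract, and its share was higher in every extract library. The part of read assignment in these row values was not tested.

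**Figure D2:**
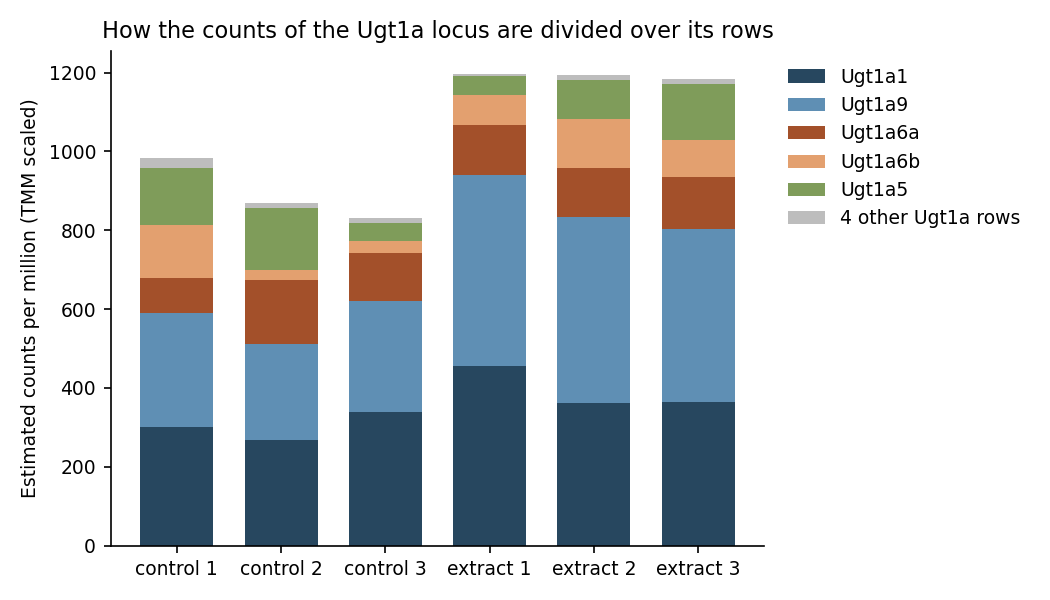
TMM-scaled CPM of the Ugt1a rows stacked by library, with bar height giving the sum over the 9 rows, colours giving 5 rows and grey the 4 others. The 3 extract bars reach 1184 to 1196 CPM, above the 830 to 983 CPM of the controls. The Ugt1a6b and Ugt1a5 segments differ between libraries of the same group, and the Ugt1a6a segments differ among the controls.

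The Ugt2 enzymes conjugate steroids, bile acids and many drugs, and the largest fold changes of the 10 genes that passed were Ugt2b34 and Ugt2b35. Ugt2b34 (chromosome 5, 86889767 to 86906937, minus strand) lay at 44.9, 42.8 and 47.0 FPKM in the controls, against 70.4, 70.6 and 65.6 FPKM with the extract. The gap between the groups was wider than the range inside either. It rose 1.60-fold, with a log2 fold change of 0.68 ± 0.05 (adjusted p = 8.00e-05 by edgeR), from 44.9 ± 2.09 to 68.9 ± 2.78 FPKM.

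Ugt2b35 (chromosome 5, 87000860 to 87013275, plus strand) lay at 23.5, 21.1 and 22.4 FPKM in the controls, against 33.4, 34.9 and 33.3 FPKM with the extract. Its groups were again far apart against their spread. It rose 1.58-fold, with a log2 fold change of 0.66 ± 0.05 (adjusted p = 0.000114 by edgeR).

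Ugt2b1 (chromosome 5, 86916638 to 86926530, minus strand) varied more among the controls, at 82.3, 73.5 and 58.7 FPKM, and lay at 97.7, 103 and 91.4 FPKM with the extract. The lowest extract library was above the highest control. It rose 1.42-fold, with a log2 fold change of 0.50 ± 0.11 (adjusted p = 0.0100 by edgeR). The call was lost by limma on log2(FPKM + 0.1) (adjusted p = 0.0665).

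Ugt2b36 and Ugt2b5, the most abundant of the 10 genes per length, rose by less. Ugt2b36 (chromosome 5, 87065927 to 87092555, minus strand) lay at 174, 168 and 166 FPKM in the controls, against 195, 204 and 181 FPKM with the extract, without overlap. It rose 1.19-fold, with a log2 fold change of 0.25 ± 0.05 (adjusted p = 0.00535 by edgeR), and by limma on FPKM without TMM factors the call was lost (adjusted p = 0.0506 to 0.110). Ugt2b5 (chromosome 5, 87124960 to 87140318, minus strand) lay at 150.1, 149.9 and 141 FPKM in the controls, against 159.9, 163 and 151 FPKM with the extract, so the groups were separated by about 1 FPKM. It rose 1.12-fold, with a log2 fold change of 0.17 ± 0.04 (adjusted p = 0.0183 by edgeR). That call was lost without control 2, extract 1 or extract 2 (adjusted p = 0.0509, 0.0599 and 0.0752 by edgeR) and by limma on FPKM (0.0512 to 0.297).

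Ugt2a3 (chromosome 5, 87324972 to 87337195, minus strand) lay at 58.4, 51.5 and 47.1 FPKM in the controls, against 56.7, 57.4 and 50.1 FPKM with the extract. The groups overlapped, and the log2 fold change of 0.13 ± 0.08 (95% interval −0.06 to 0.31, adjusted p = 0.295 by edgeR) did not pass. The 95% intervals of Ugt2b34 (0.56 to 0.79) and Ugt2b35 (0.54 to 0.78) lay above those of Ugt2b36 (0.15 to 0.36), Ugt2b5 (0.07 to 0.26) and Ugt2a3. The differences between genes were not tested.

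**Figure D3:**
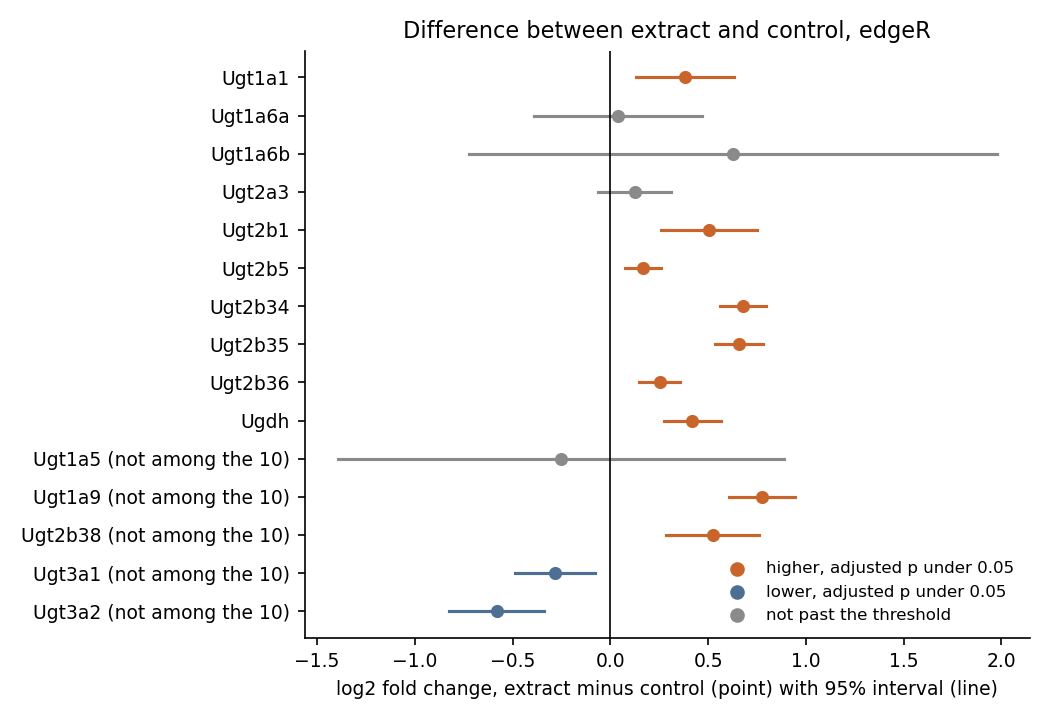
Log2 fold change of extract against control from edgeR (points) with 95% intervals (lines) for the 10 genes and for Ugt1a5, Ugt1a9, Ugt2b38, Ugt3a1 and Ugt3a2, coloured orange for higher, blue for lower and grey for not past the threshold. The intervals of Ugt1a6a, Ugt1a6b and Ugt2a3 include 0, and among the 10 that of Ugt1a6b is the widest, from −0.72 to 1.98.

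The order of the levels changed little. In the controls it ran, from highest mean FPKM, Ugt2b36, Ugt2b5, Ugt1a1, Ugt2b1, Ugt2a3, Ugt2b34, Ugt1a6a, Ugt1a6b, Ugt2b35 and Ugdh. Neighbours overlapped only at Ugt1a6a with Ugt1a6b and Ugt1a6b with Ugt2b35. With the extract, Ugt2b34 stood above Ugt2a3, and Ugt2b35 and Ugt1a6b stood above Ugt1a6a. There, Ugt2b5 overlapped Ugt1a1 and Ugt2b35 overlapped Ugt1a6b.

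Summed over the 9 transferases, the level was 712, 651 and 643 FPKM in the controls and 829, 833 and 759 FPKM with the extract. Each extract library was above each control, and the mean went from 669 ± 37.7 to 807 ± 41.4 FPKM, a difference of 138 FPKM and a ratio of 1.21. The 6 Ugt2 members alone went from 507 ± 25.7 to 606 ± 30.6 FPKM, a ratio of 1.19. Within the sum, Ugt2b34 went from 6.73 to 8.54% and Ugt2b35 from 3.34 to 4.20%, while Ugt2b5 went from 22.01 to 19.6%. These sums are descriptions with no test.

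Among 13 other Ugt genes listed, 11 were in the table and 10 were tested, of which 3 rose, 2 fell and 5 did not pass. Their median log2 fold change was −0.27. It includes Ugt1a2 and Ugt8a, under 1 FPKM in every library, and Ugt1a5, Ugt1a7c and Ugt1a10, whose reads are shared within the locus. None of these passed. Ugt1a9, which conjugates phenols, lay at 111, 94.7 and 108 FPKM in the controls, against 179.98, 176 and 159 FPKM with the extract. It rose 1.71-fold (adjusted p = 0.000222 by edgeR), with the same limit on its reads as the other Ugt1a rows. Ugt2b38 rose 1.44-fold and Ugt2b37 from 0.889 to 1.96 FPKM, and both share stretches with Ugt2b5. The Ugt3a genes, whose enzymes use other UDP-sugars than glucuronic acid, went the other way. Ugt3a2 lay at 51.7, 45.9 and 37.6 FPKM in the controls, against 29.2, 27.2 and 30.1 FPKM with the extract (log2 fold change −0.58 ± 0.11, adjusted p = 0.00532 by edgeR). Ugt3a1 fell by 0.28 on the log2 scale (adjusted p = 0.0467 by edgeR), a call lost without control 1, control 2 or any extract library (adjusted p = 0.0850 to 0.152).

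Transcription factors linked to the control of Ugt genes, together with Keap1 and Ahrr, which restrain NRF2 and the aryl hydrocarbon receptor, formed a list of 16. Of these, 11 rose, 1 fell and 4 did not pass, with a median log2 fold change of 0.35. Ahr, the aryl hydrocarbon receptor, rose 2.02-fold, from 3.60 ± 0.139 to 6.998 ± 0.179 FPKM (adjusted p = 2.01e-05 by edgeR). Arnt, its dimer partner, rose 1.65-fold. Ppara, the fatty acid receptor, rose 2.18-fold, from 11.5 ± 1.75 to 24.1 ± 1.21 FPKM, and Foxa2, a liver-enriched factor, rose 2.49-fold, from 4.49 to 10.7 FPKM. Nr1i2, the xenobiotic receptor PXR, was the one that fell, from 42.5 ± 1.88 to 34.9 ± 0.716 FPKM (log2 fold change −0.22, adjusted p = 0.00856 by edgeR). Without extract 1 that call was lost (adjusted p = 0.0572). Nr1i3, the receptor CAR, had 80.2 FPKM in the controls and 77.4 FPKM with the extract and did not pass (adjusted p = 0.909 by edgeR). Nfe2l2, which encodes NRF2, the factor of the antioxidant response element, had a log2 fold change of 0.10 and did not pass (adjusted p = 0.210).

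Known target genes of these receptors formed a list of 15, of which 8 rose, 1 fell and 6 did not pass. Ephx1, the microsomal epoxide hydrolase, rose 2.30-fold, and Gstm1, a glutathione transferase, 1.84-fold. Nqo1, a quinone reductase and a target of NRF2, rose 1.94-fold, from 1.70 to 3.15 FPKM. Gsta1, another glutathione transferase, rose 4.58-fold from a low level of 0.766 to 3.38 FPKM. Cyp1a1, a target of the aryl hydrocarbon receptor, stayed low, at 0.699 FPKM in the controls and 0.614 FPKM with the extract (adjusted p = 0.781 by edgeR). Cyp1a2, a more abundant target of that receptor, had 171 FPKM in the controls and 192 FPKM with the extract. It did not pass (adjusted p = 0.170 by edgeR), but passed as higher without control 1 (0.0196). The one that fell was Tiparp, another target of that receptor, from 3.32 ± 0.288 to 2.22 ± 0.051 FPKM (log2 fold change −0.52 ± 0.08, adjusted p = 0.00303 by edgeR). Among targets of CAR and PXR, Cyp2b10 rose 1.61-fold, from 6.83 to 10.6 FPKM (adjusted p = 0.00273 by edgeR). Cyp3a11 had 731 FPKM in the controls and 662 FPKM with the extract and did not pass (adjusted p = 0.220 by edgeR).

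**Figure D4:**
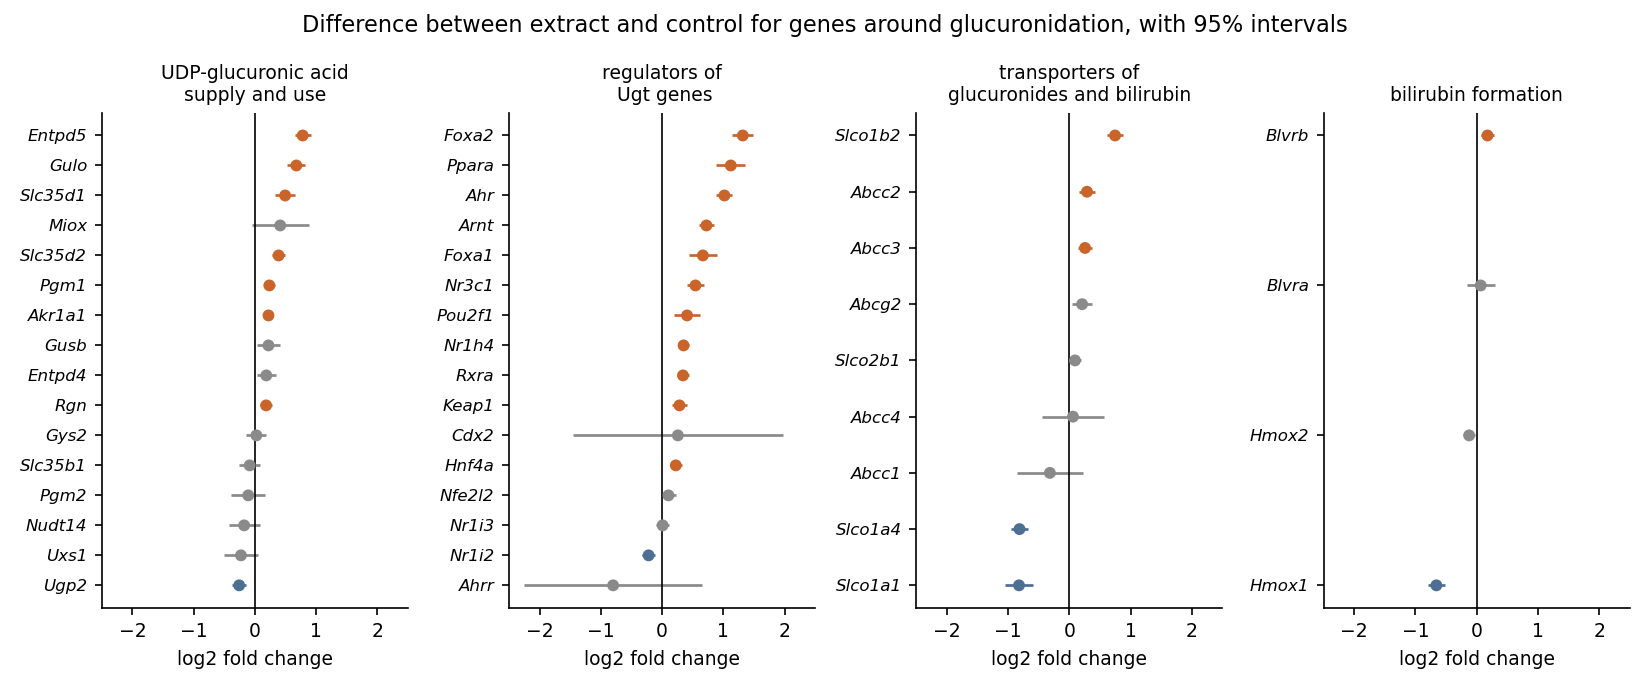
Log2 fold changes from edgeR (points) with 95% intervals (lines) for the genes of 4 lists around the 10 genes, 1 panel per list, coloured orange for higher, blue for lower and grey for not past the threshold. Foxa2, Ppara and Ahr lie farthest to the right among the regulators, and Hmox1, Slco1a1, Slco1a4, Ugp2 and Nr1i2 are the genes coloured as lower.

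Glucuronides leave the hepatocyte through pumps, and bilirubin enters it through carriers. In this list of 9 transporters, 3 rose, 2 fell and 4 did not pass. Abcc2, which exports bilirubin glucuronide into bile, rose 1.22-fold, from 46.2 ± 3.33 to 54.1 ± 2.22 FPKM (adjusted p = 0.00735 by edgeR). Abcc3, which exports glucuronides into blood, rose 1.19-fold (adjusted p = 0.00835 by edgeR). Both calls were lost by limma on log2(FPKM + 0.5), at adjusted p = 0.0605 and 0.0690. Slco1b2, an uptake carrier of organic anions, rose 1.68-fold, from 100.2 ± 7.02 to 161 ± 7.48 FPKM (adjusted p = 9.77e-05 by edgeR). The uptake carriers Slco1a1 and Slco1a4 fell, from 51.7 to 28.01 FPKM and from 16.6 to 9.03 FPKM.

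Bilirubin, the substrate of Ugt1a1, is made from haem. Of 4 genes of its formation, 1 rose, 1 fell and 2 did not pass. Hmox1, the inducible haem oxygenase, fell from 24.0 ± 0.949 to 14.6 ± 0.631 FPKM (log2 fold change −0.66, adjusted p = 0.000194 by edgeR). Blvra, a biliverdin reductase, had 3.34 and 3.35 FPKM and did not pass (adjusted p = 0.676). Blvrb, another reductase, rose 1.13-fold (adjusted p = 0.0301 by edgeR), a call lost by limma on FPKM without TMM factors (0.134 to 0.243) and without control 2, extract 2 or extract 3 (0.0613 to 0.0997).

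Liver tissue holds several cell types, and in bulk RNA fewer cells of a type and less RNA per cell cannot be told apart. The 10 hepatocyte markers were all above 1 FPKM. They summed to 38914 to 48030 FPKM in the controls and 38905 to 39819 FPKM with the extract, and 4 rose, 3 fell and 3 did not pass. The 10 red cell markers summed to 1284 to 1631 FPKM in the controls and 212 to 249 FPKM with the extract (1 rose, 8 fell). The 10 neutrophil and lymphocyte markers summed to 127 to 229 and 40.8 to 53.1 FPKM (8 fell). The 10 Kupffer cell markers summed to 426 to 446 and 259.6 to 274 FPKM (9 fell), and the 10 sinusoidal endothelial markers to 61.5 to 68.7 and 48.8 to 51.2 FPKM (6 fell). The 10 stellate cell markers summed to 80.4 to 100.5 and 80.04 to 85.1 FPKM (1 rose, 1 fell, median log2 fold change −0.08), and the 10 cholangiocyte markers to 41.1 to 56.3 and 34.8 to 43.1 FPKM (1 rose, 1 fell, median −0.54). Their part in the changes of the 10 genes and of the other genes named, Hmox1 included, was not tested. Intestine and kidney also express Ugt genes. The 10 intestinal markers summed to 229 to 258 FPKM in the controls and 224 to 232 FPKM with the extract, with Cdx2, Lct and Sis under 1 FPKM in every library. Of these, 1 rose and 2 fell, with a median log2 fold change of −0.71. Most of that sum was Apoa4, which liver also makes and which rose from 165 to 182 FPKM, while Fabp2 fell from 53.2 to 32.7 FPKM (adjusted p = 0.000160 by edgeR) and Lgals4 from 17.0 to 7.43 FPKM (adjusted p = 0.0115). The 10 kidney markers summed to 22.4 to 33.9 and 34.4 to 38.1 FPKM (2 rose), with 6 of the 10 under 1 FPKM in every library. Control 3 stood apart, with 78.3 FPKM over 10 pancreas markers against 6.20 and 6.73 FPKM in the other controls, and 0.911 FPKM over 10 muscle markers against 252 and 188. In the extract libraries these sums were 80.3 to 90.7 and 233 to 334 FPKM. Without control 3, edgeR called 7 of the 10 genes higher, but the pancreas sums of the remaining controls then lay below those of every extract library, and their part in the calls was not tested.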

How the data were processed

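Messenger RNA of 6 mouse liver libraries (3 control, 3 extract) was selected with oligo(dT) beads, as the labels' protocols state. Tools listed without roles in the submitters' processing notes are edgeR, StringTie 1.3.4d, HISAT2 2.0.4 and cutadapt 1.9. Genome build, strand setting and read length are not given in the sources used here. Per gene, the deposited table holds estimated counts, whole numbers totalling 51219533 to 61432016 per library, per the file headers. Low counts peak at 4 (6292 entries, against 5334 at 1), so 1 read pair may add several counts, and the totals may overstate the depth. It also holds FPKM, which the authors scaled for gene length and mapped fragments. A further 6 per-sample columns, matching no sample, were left out. Of the gene identifiers, 99.7% are in GENCODE M21 (GRCm38), and coordinates are those of that build.

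The test on counts used R 4.3.3 and edgeR 4.0.16 (filterByExpr, TMM, quasi-likelihood test, Benjamini-Hochberg over 18071 genes, threshold 0.05). A trial on simulated counts changed 200 genes, by more than the 10 genes here. It does not measure the error rate in these data. CPM are counts scaled by the TMM-adjusted library total. Alternatives were DESeq2 1.42.0, limma 3.58.1 on log2(FPKM + pseudocount 0.5, 0.1 or 1), other filters and scalings, leaving out each library, and the replicate number as a block. Same-numbered libraries did not deviate together (correlations −0.12, −0.03 and −0.09), so the numbers were not taken as pairs. Named genes are the 10 genes, up to 4 per list with the smallest p, and list genes whose role ties them to a member. Ugt1a5, Ugt3a1, Cyp1a1, Cyp1a2, Cyp2b10, Cyp3a11, Tiparp, Papss1, Sult1a1 and single marker genes were named after their values were seen. The 10 genes and the lists were chosen with earlier results of these data known, so their counts are descriptions. Promoter windows come from RefSeq (GRCm38.p6). One gene of the regulator list, and the promoter patterns tied to it, are not reported here.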

Additional observations from a re-analysis of the deposited data

How the results depend on the processing

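Of the 10 genes, 7 were called higher by edgeR. The count was 4, 3 and 4 by limma on log2(FPKM) with a pseudocount of 0.5, 0.1 and 1, and between 5 and 7 when any single library was left out. It was 5 with TMM factors applied to FPKM. The 7 called without control 1 were not the same 7. There, Ugt1a1 lost its call (adjusted p = 0.0732 by edgeR) and Ugt1a6b gained one (0.00157). No setting called any of the 10 lower. Ugt2b34 (log2 fold change 0.61 to 0.72), Ugt2b35 (0.58 to 0.70) and Ugdh (0.32 to 0.46) kept their call in all 17 alternatives. So did the summed Ugt1a locus (0.37 to 0.49) in its 16, which were chosen after seeing the data. The estimate of Ugt1a6a reversed without control 1 (−0.16) and ranged up to 0.28 without control 2, and the cause was not tested. The genes called over the whole table numbered 4870 of 18071 tested. With a minimum mean of 5 FPKM, 2507 of 4882 were called, a larger share, and 7 of the 10 were higher. When a library was left out, 3237 to 4706 genes were called, with fewer samples. With the replicate block, 3746 genes were called, and 7 of the 10 were higher. Among the other genes named, Blvrb (adjusted p = 0.0847 by edgeR) and Sult2a1 (0.0582) were not called with the block. The difference in summed FPKM of the 9 transferases was 125 to 162 when a library was left out, and 98.6 without the Ugt1a rows. Depth limits genes with few counts, since a few counts may come from a single read pair.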

Other observations

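Sulfation handles many of the same phenols and steroids as glucuronidation. Of 13 genes for sulfotransferases and their cofactor, 3 rose, 1 fell and 9 did not pass, with a median log2 fold change of 0.03. Sult3a1, an amine sulfotransferase, rose 5.01-fold, from 9.16 ± 0.564 to 44.0 ± 11.1 FPKM (SD, n = 3, adjusted p = 6.03e-05 by edgeR). Papss2, which makes the sulfate donor, rose 1.92-fold, from 21.5 ± 2.63 to 39.6 ± 1.52 FPKM (adjusted p = 0.000140 by edgeR). Its relative Papss1 had 3.34 and 2.87 FPKM and did not pass (adjusted p = 0.294). Sult2a1, a steroid sulfotransferase, rose 3.03-fold from a low level of 0.389 to 1.14 FPKM (adjusted p = 0.0253 by edgeR), and Sult1c2 fell by 0.60 on the log2 scale (adjusted p = 0.0280). Both calls were lost when single libraries were left out (adjusted p = 0.0520 to 0.0793 for Sult2a1 without control 2 or any extract library, and 0.0586 to 0.0873 for Sult1c2 without any control, extract 1 or extract 3). Sult1a1, the phenol sulfotransferase with the highest level of this list, had 249.9 FPKM in the controls and 213 FPKM with the extract and did not pass by edgeR (adjusted p = 0.0541). It passed as lower by DESeq2 (0.0132), with a minimum mean of 5 FPKM (0.0240), by limma on log2(FPKM + 1) (0.0487), with counts divided by 4 (0.0382) and without control 3 (0.00262).

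The genes whose pattern over the 6 libraries was closest to that of Ugdh, by Euclidean distance of centred log2(FPKM + 0.5) among 4881 genes, were Mapk14 (distance 0.049), Fbxw11 (0.059) and Pdzk1 (0.063). Mapk14 went from 14.3 to 18.2 FPKM. Those closest to Ugt2b36, the most abundant of the 10, were Coa5 (0.037), Uhrf1bp1l (0.042) and Vwa5a (0.049). Coa5 went from 10.03 to 11.6 FPKM. These distances are descriptions over 6 libraries, with no test.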
